A study of Mus musculus with 8 samples.

Results

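Promoter to distal loops under 500 kb are contacts in which exactly one of 2 different anchors overlaps the transcription start of a protein-coding gene and the anchor midpoints lie less than 500 kb apart. Starts were taken from GENCODE M21 on the mouse build GRCm38. Of the 415681 loops in the count table, 77138 (18.6%) met this rule, and 16272 of these (21.1%) could be tested, having 5 or more counts in 2 or more libraries. The other 60866 had too few counts, among them 11272 with 1 count over all 8 libraries. The loops came from HiChIP, which cuts cross-linked chromatin, ligates fragments that touch each other and then pulls down the ligated pairs that carry a chosen histone mark, here H3K27ac.

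Enhancers are regulatory sequences away from a gene's start that are bound by transcription factors and can come into contact with a promoter through a loop of the chromatin fibre. Acetylation of lysine 27 on histone H3 marks active promoters and active enhancers, so a loop recovered with this mark joins places of which at least one carried it. In mouse embryonic stem cells, well-studied distal elements of this kind lie near Sox2, Nanog and other genes of the pluripotency network, and the insulator protein CTCF with cohesin holds many loop bases in place, usually with its binding motifs facing each other.

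The 8 libraries came from 4 mouse embryonic stem cell lines, each a single line sequenced as 2 technical replicates. B6 (line B6 5-1) is C57BL/6J and D2 (line D2 5-5) is DBA/2J. B6-13D2 (line QJ 6-1, strain B6.D2-(rs30079041-rs51756099)/Bakr) has the B6 genome with an interval of chromosome 13 from D2, and D2-13B6 (line XE 2-4, strain D2.B6-(rs29224292-rs13469455)/Bakr) has the D2 genome with an interval from B6. All were grown in serum with LIF, the MEK inhibitor PD0325901 and the GSK3 inhibitor CHIR99021, a medium that holds cells in naive pluripotency. The strain name of D2-13B6 is spelled as in the sample labels. The description of the series gives another second marker for it, and which pair bounds the interval was not settled here. Because the replicates are technical and each genotype is 1 line, every edgeR p-value below measures a difference between lines against the spread between libraries of the same line.

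The libraries held 737955 to 1425304 loop counts, and the loops described here took 26.4 to 27.3% of them as line means. D2-13B6 stood apart on chromosome 11. There the median log2 difference of the tested promoter to distal loops, D2 minus D2-13B6, was -0.48, against -0.01 over all of them, and all 45 loops of chromosome 11 that passed the test in this comparison were lower in D2, as were all 184 calls (3.82%) among the 4822 tested loops of any kind on that chromosome. Counts on chromosome 11 are therefore given apart, and the rule for naming loops passed over this chromosome in comparisons that use D2-13B6. The labelled cell type was checked with marker genes. All 8 embryonic stem cell markers had tested loops, and their loops summed, per 1000000 counts of the library, to 767 to 880 counts in B6 and 852 to 904 in B6-13D2, and to 924 to 960 in D2 and 915 to 987 in D2-13B6. None of the 5 neural, 5 trophoblast and 3 haematopoietic markers had an anchor at its start in the loop table, so their 0 counts are an absence from the table and not a measured level. The same holds for 6 of 7 primitive endoderm markers, and Pdgfra gave 2.10 to 6.30 without a testable loop. Of 7 fibroblast markers 5 had no anchor either, and Col1a2 with Prrx1 summed to 30.1 to 31.2 in D2 against 12.2 to 21.7 in the other lines. Their part in the results below was not tested.

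Sequences of 3 kinds show what the anchors hold. The first are the 100 bases upstream of the start of genes at promoter anchors, from RefSeq on GRCm38.p6, for pluripotency genes whose loops are described below and for 2 genes whose loops differed strongly between lines. Capitals mark a match to the composite motif of Pou5f1 and Sox2, which among these only the Nanog promoter held.
Sox2 promoter, chr3:34649895-34649994, plus strand: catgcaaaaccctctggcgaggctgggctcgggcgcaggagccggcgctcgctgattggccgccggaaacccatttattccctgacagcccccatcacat
Nanog promoter, chr6:122707389-122707488, plus strand: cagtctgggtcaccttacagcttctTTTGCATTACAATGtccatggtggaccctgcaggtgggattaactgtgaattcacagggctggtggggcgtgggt
Tdgf1 promoter, chr9:110946159-110946258, minus strand: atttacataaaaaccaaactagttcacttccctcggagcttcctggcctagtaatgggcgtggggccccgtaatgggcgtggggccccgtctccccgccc
Trim12a promoter, chr7:104315496-104315595, minus strand: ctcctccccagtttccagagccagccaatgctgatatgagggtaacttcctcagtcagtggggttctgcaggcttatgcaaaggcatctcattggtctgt
Cnbp promoter, chr6:87851107-87851206, minus strand: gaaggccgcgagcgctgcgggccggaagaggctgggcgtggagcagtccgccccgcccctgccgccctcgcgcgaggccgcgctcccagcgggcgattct
Promoter sequences were found for 34 of the 42 gene symbols asked for. The Cnbp sequence holds 16 CpG dinucleotides and that of Sox2 8, while Trim12a has 0, against a median of 3 over 32851 promoters of the same length. The composite motif occurred in 0.00609% of those promoters on either strand, and no match in a window of this length says nothing of the factor's binding elsewhere.

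The second kind are CTCF motif matches at both bases of a loop, each printed 5′ to 3′ on the strand of the motif with the core in capitals, because the direction of the motifs differs between loops. Positions are on GRCm38.
Ptma distal anchor, chr1:86501181-86501210, plus strand: cgtctgtcaCCAGCAGGGGGCgggcaagaa
Ptma promoter anchor, chr1:86532540-86532569, minus strand: gccctgtaaCCACCAGAGGGCgcccatcgc
Atf7ip distal anchor, chr6:136467498-136467527, plus strand: ctgaactggCCAGCAGAGGGCgacgaggga
Atf7ip promoter anchor, chr6:136555829-136555858, minus strand: tttccatccCCACCAGGGGGCacactacag
Pebp1 promoter anchor, chr5:117290264-117290293, minus strand: ccacacaagCCAGTAGAGGGCatcagattc
Pebp1 distal anchor, chr5:117307785-117307814, plus strand: ggggctcagCCACTAGAGGGCgctgcctga
In the loops of Ptma, which encodes the nuclear protein prothymosin alpha, and of Atf7ip, a partner of the histone methyltransferase SETDB1, the motifs pointed towards each other. In the loop of Pebp1, the Raf kinase inhibitor protein, they pointed away from each other, and both lay in sequence masked as repeat.

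The third kind are CTCF matches in distal anchors that lie in repeats and are nearly the same sequence at different places of the genome.
Sall4 distal anchor, chr2:168843719-168843748, minus strand: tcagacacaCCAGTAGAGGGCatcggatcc
Chd2 distal anchor, chr7:73631448-73631477, plus strand: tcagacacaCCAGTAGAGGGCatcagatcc
The Sall4 and Chd2 sites were identical at 29 of 30 bases. Across the anchors of tested loops that are a single 5-kb bin, 5.53% of 3614 distal anchors and 4.12% of 1673 promoter anchors held a CTCF match, against 2.40% of the 529145 bins of the genome. Of the matches in distal anchors 15.6% were masked as repeat, against 12.7% in promoter anchors and 20.3% over the genome. Promoter anchors were richer in G and C (47.7% ± 4.11, SD over anchors) than distal anchors (44.8% ± 3.91) and held more CpG, 25.05 against 11.1 per kb, with 41.7% and 8.26 over all bins. TCAAGGTCA, the motif of the orphan receptor Esrrb, occurred on either strand in 18.3% of distal and 13.4% of promoter anchors, against 10.1% of all bins. GGGNGTGGC, a motif of Klf factors, occurred in 25.7% and 29.8%, against 15.7%. The composite motif was rare everywhere, at 0.0830% of distal anchors, 0.0598% of promoter anchors and 0.129% of all bins. These shares are descriptions of anchors that differ from the genome in base composition.

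The direction of CTCF motifs could be read in 266 tested loops whose 2 anchors each held matches of 1 direction. The motifs pointed towards each other in 73 of these (27.4%), in the same direction in 132 (49.6%) and away from each other in 61 (22.9%). The number pointing towards each other was 9 of 56 loops under 50 kb, 14 of 56 at 50 to 100 kb, 30 of 100 at 100 to 250 kb and 20 of 54 at 250 to 500 kb. Anchors are 10 kb wide at the median, and a motif match is not a bound site.

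The loops ranged in span from 10 to 497.5 kb, with a median of 220.0 kb for all of them and 72.5 kb for those tested. Promoter to promoter loops under the same limit had a longer tested median, 105 kb over 11292 loops, and loops between 2 distal anchors a shorter one, 45 kb over 9364. Depth fell steeply with span. Of 3052 loops under 25 kb 88.3% could be tested, of 5339 at 25 to 50 kb 63.6%, of 9625 at 50 to 100 kb 40.1%, of 25322 at 100 to 250 kb 17.8% and of 33800 at 250 to 500 kb 5.41%. Mean counts per pair of 5-kb bins over all libraries were 52.6, 17.9, 7.87, 3.36 and 1.47 in the same order. Nothing in the values marks the limit itself, since the 1128 loops at 490 to 500 kb averaged 4.96 counts and the 1143 loops at 500 to 510 kb, outside the rule, 4.94.

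**Figure D1:**
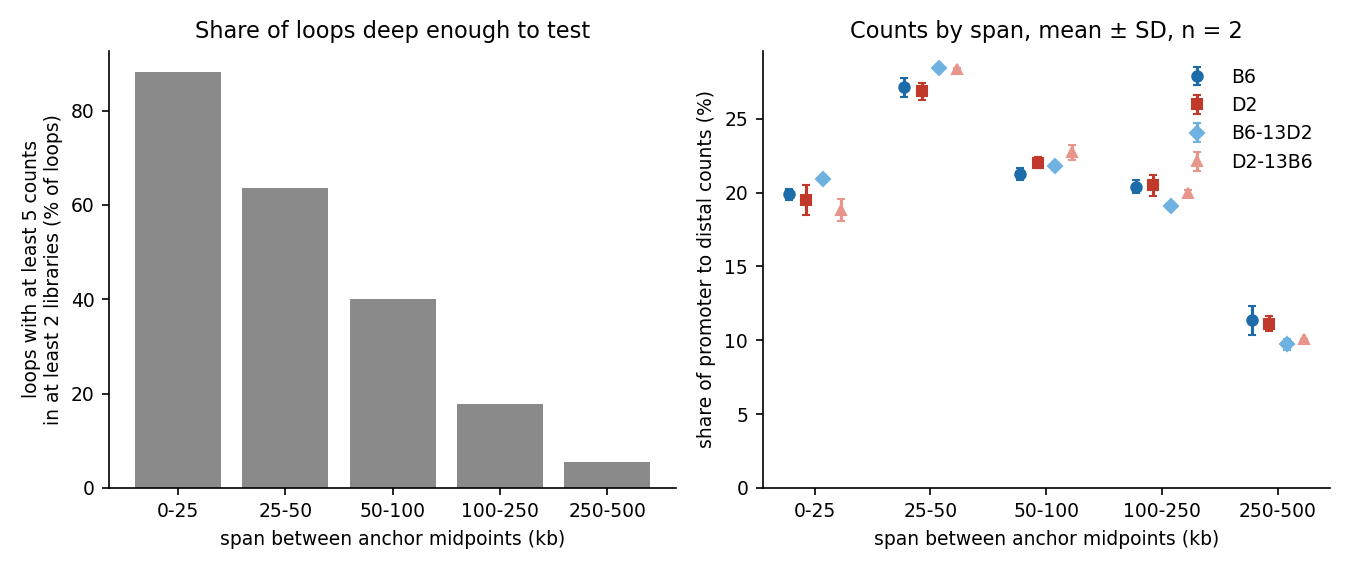
Left, the percentage of promoter to distal loops in each range of span (kb between anchor midpoints) with 5 or more counts in 2 or more libraries. Right, the percentage of each line's promoter to distal counts that fell in each range, as mean ± SD of 2 libraries for each of the 4 lines; the testable share falls from 88.3% under 25 kb to 5.41% above 250 kb, and the range at 25 to 50 kb holds 26.9 to 28.4% of the counts.

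The 4 lines divided their counts over span in nearly the same way. Loops at 25 to 50 kb took 27.1% in B6 and 26.9% in D2, and 28.4% in each congenic line, the largest share of any range in each line. At 250 to 500 kb the shares were 11.3% ± 0.983 (SD, n = 2 here and below) in B6 and 11.1% ± 0.527 in D2, and in the congenic lines 9.74% ± 0.377 (B6-13D2) and 10.1% ± 0.0113 (D2-13B6). The counts of loops within 1 anchor moved the other way, with 30.3% and 30.2% of all counts in B6 and D2 and 33.1% and 33.0% in the congenic lines. Every congenic library was deeper than every parental one, so depth and line type cannot be told apart here.

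The tested loops joined 5909 promoter anchors, which hold the starts of 7140 genes, with 7637 distal anchors. A promoter anchor had a median of 2 distal partners, 2158 (36.5%) had 1, 967 (16.4%) had 5 or more and the highest had 17. Distal anchors also had a median of 2 promoter partners, 3676 (48.1%) had 1 and 614 (8.04%) had 5 or more, up to 18. Only 4414 of the tested loops (27.1%) joined a distal anchor to the promoter anchor nearest to it, and 9209 (56.6%) passed over the start of at least one other coding gene. The nearest promoter was reached by 72.1% of tested loops under 25 kb and 1.31% at 250 to 500 kb. Where the promoter anchor held 1 gene, 49.4% of 12561 loops ran upstream and 50.6% downstream, and 24.5% ended within the gene itself. Of the tested distal anchors 1875 (24.6%) held the start of a non-coding or other annotated transcript, so distal here does not mean free of annotated starts.

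The promoter anchors with the most partners belonged to Trim24, a bromodomain cofactor of nuclear receptors, and to Tsc22d1, a leucine zipper gene induced by TGF-beta. Trim24 had 17 tested loops of 55 to 455 kb, 1 of which passed the test of genetic background, and Tsc22d1 had 17 of 45 to 485 kb, of which 0 did. Jarid2, an accessory subunit of Polycomb repressive complex PRC2, had 16 partners and 0 calls in any of the 5 comparisons. Of all tested loops 8.85% passed the test of background, and with so few loops 0 or 1 call lies near that share. Eno1, which encodes the glycolytic enzyme enolase, had 16, of which 11 lay downstream. An anchor of 130 kb on chromosome 11 (chr11:88920001-89050000), with the starts of Scpep1, Elobl, Coil and Trim25, had 16 partners. It had the most loops that passed the test of background at one promoter anchor, 6, against 9.42% of all tested loops of chromosome 11. Its loops summed to 297 and 246 counts in B6, 291 and 435 in B6-13D2, 335 and 302 in D2 and 846 and 849 in D2-13B6, the line that stands apart on this chromosome, and 0 of them passed edgeR's test for D2 minus B6.

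Among distal anchors, chr9:108220001-108255000 within Dag1, the dystroglycan gene, had 18 promoter partners, at up to 467.5 kb, among them Rhoa with its neighbours, Usp4 and Qrich1. A distal anchor at chr19:5785001-5825000 holds the start of the non-coding RNA gene Malat1 and also had 18, among them those of Rela, Kat5 and Cfl1. At chr15:98965001-99000000, 17 promoters were joined, including Kmt2d, a histone methyltransferase acting at enhancers, and the tubulin genes Tuba1a, Tuba1b and Tuba1c. Loops of one anchor are not independent of each other.

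The loop with the most counts joined Irf2bpl and the circadian gene Cipc to an anchor 92.5 kb away (chr12:86860001-86950000 with chr12:86785001-86840000). It measured 692 and 611 CPM in B6, 574 and 699 in B6-13D2, 752 and 668 in D2 and 853 and 1020.3 in D2-13B6. D2-13B6 was highest, and the D2-background libraries overlapped those of the B6 background (log2 fold change 0.34 ± 0.08 (SE), adjusted p = 0.000772). The same distal anchor gave the strongest tested loop of Esrrb, a nuclear receptor of the naive network, at 325 kb. The strongest loop of Chd2, a chromatin remodeller, gave 519 and 578 CPM in B6, 622 and 568.5 in B6-13D2, 635 and 652 in D2 and 687 and 766 in D2-13B6. Its background difference was 0.26 ± 0.08 (SE), adjusted p = 0.0211 on the log2 scale. Atf7ip, whose CTCF sites are printed above, gave 476 and 443 CPM in B6, 523 and 499 in B6-13D2, 587 and 622 in D2 and 673 and 821 in D2-13B6. The D2-background libraries were higher on average, with log2 fold change 0.47 ± 0.08 (SE), adjusted p = 1.13e-06.

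The share of all counts that fell in these loops differed little between lines, at 27.3% ± 0.0920 in B6, 26.8% ± 0.262 in D2, and in the congenic lines 26.7% ± 0.146 (B6-13D2) and 26.4% ± 0.0320 (D2-13B6). Against the B6 background, the D2 background differed by -0.407 percentage points (D2 minus B6), with 26.6% ± 0.288 against 27.002% ± 0.332 (SD over 4 libraries from 2 lines each; 2-sided exact permutation test, p = 0.114, adjusted p = 0.171 over 3 tests). The permutation treats technical replicates of a line as if they were independent, so these p-values do not speak for lines, of which each side has 2. By the origin of the interval the difference was -0.0623 points (exact permutation p = 0.8). Parental minus congenic lines was 0.486 points, 27.04% ± 0.315 against 26.6% ± 0.217 (exact permutation p = 0.0857, adjusted p = 0.171). Every parental library was shallower (737955 to 952040 counts) than every congenic one (982278 to 1425304), so line type and depth cannot be told apart. The parental minus congenic difference turned to -0.873 points (exact permutation, adjusted p = 0.257) when contacts within an anchor were left out of the total.

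Genetic background was compared first, as the mean of D2 and D2-13B6 minus the mean of B6 and B6-13D2, which asks how loops differ with the genome outside the interval. Of the 16272 tested loops 1244 (7.65%) passed edgeR's quasi-likelihood test after Benjamini-Hochberg adjustment over all 44706 tested loops, 590 of them higher and 654 lower where the genome was D2. Over all tested loops 8.85% passed (4.3% higher, 4.55% lower), and 5.07% of promoter to promoter and 11.6% of distal to distal loops, so the loops described here lay between these kinds and slightly under the whole. On chromosome 11, 123 were higher and 20 lower, against 8.11% and 1.31% of all tested loops there (9.42% in all), and elsewhere 467 were higher and 634 lower, against 3.84% and 4.94% of all tested loops off that chromosome. Leaving out any 1 library left 888 (without B6 replicate 1) to 1089 calls. DESeq2 called 347, and edgeR 42 with a filter at 1 count, where of the loops named below those of Gm21915 (adjusted p = 0.0589), Olig1 (0.124) and Stard3nl (0.0552) lost their calls. CPM below are edgeR's counts per 1000000 counts of the library after TMM scaling, and n is 2 libraries per line throughout.

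The loop with the smallest adjusted p among those higher in the D2 background joined the starts of Tdgf1 and Lrrc2 with an anchor inside Lrrc2, 25 kb away (chr9:110935001-110970000 with chr9:110975001-110980000). Tdgf1 (Cripto) is the co-receptor of Nodal and a marker of undifferentiated stem cells. The loop measured 34.96 and 27.8 CPM in B6, 34.6 and 25.3 in B6-13D2, 146 and 138 in D2 and 176 and 185 in D2-13B6. All 4 libraries of the D2 background lay above all 4 of the B6 background (log2 fold change 2.39 ± 0.16 (SE), adjusted p = 2.87e-49). Contacts inside its promoter anchor did not pass the same test (log2 fold change 0.09, adjusted p = 0.678). Samd9l, an interferon-inducible gene, was joined over 37.5 kb to chr6:3420001-3435000. Its loop measured 1.25 and 4.90 CPM in B6, 7.42 and 4.53 in B6-13D2, 74.7 and 119 in D2 and 53.5 and 42.1 in D2-13B6. It was low in every B6-background library (log2 fold change 4.02 ± 0.29 (SE), adjusted p = 6.47e-41), while contacts inside its promoter anchor differed by -0.18 (adjusted p = 0.856).

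The short loop of Pebp1 (chr5:117285001-117295000 with chr5:117300001-117310000), whose CTCF sites pointed apart, gave 12.5 and 13.1 CPM in B6, 18.6 and 17.2 in B6-13D2, 91.9 and 80.96 in D2 and 92.8 and 81.6 in D2-13B6. The 2 groups of 4 did not overlap (log2 fold change 2.52 ± 0.21 (SE), adjusted p = 1.94e-31). Olfr924, an odorant receptor gene in a cluster of near copies, was joined to an anchor within Olfr923 and gave 3.75 and 8.17 CPM in B6, 3.71 and 0 in B6-13D2, 50.3 and 42.9 in D2 and 48.2 and 58.8 in D2-13B6 (log2 fold change 3.99 ± 0.33 (SE), adjusted p = 2.59e-30).

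Among the loops lower in the D2 background, that of Trim12a, a relative of the restriction factor Trim5, was found almost entirely in libraries of the B6 background. It held 40 and 32 counts in B6 and 43 and 51 in B6-13D2, against 0 and 0 in D2 and 1 and 1 in D2-13B6. The loop thus met the filter for testing only through libraries of the B6 background. The ratio of B6 to D2 background was 91.0000 (95% interval 24.8 to 758, counting error only, edgeR adjusted p = 5.13e-42). Trim12a, Olfr924, Nlrp4f and Zfp273 belong to multigene families, in which related copies could share reads. How reads were assigned between copies was not tested, and whether reads of D2 map as well as those of B6 to the B6 reference was not tested. Gm21915 was joined over 35 kb to chr9:40610001-40620000 and gave 121 and 136 CPM in B6, 85.4 and 132 in B6-13D2, 31.6 and 15.9 in D2 and 26.8 and 20.2 in D2-13B6 (log2 fold change -2.32 ± 0.17 (SE), adjusted p = 2.04e-38). Mthfd1, an enzyme of folate metabolism, gave 167 and 145 CPM in B6, 169.5 and 176 in B6-13D2, 66.1 and 82.5 in D2 and 37.5 and 43.9 in D2-13B6 for its loop into Tex21 (log2 fold change -1.59 ± 0.14 (SE), adjusted p = 1.76e-28).

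Olig1, a transcription factor gene of the oligodendrocyte lineage, had a loop of 12.5 kb with 47.4 and 42.5 CPM in B6, 45.8 and 41.6 in B6-13D2, 5.74 and 7.94 in D2 and 0 and 7.90 in D2-13B6 (log2 fold change -3.06 ± 0.29 (SE), adjusted p = 1.84e-22). Stard3nl, a protein of contacts between endosomes and the endoplasmic reticulum, gave 41.2 and 47.4 CPM in B6, 71.8 and 52.5 in B6-13D2, 11.5 and 3.17 in D2 and 7.14 and 12.3 in D2-13B6 (log2 fold change -2.58 ± 0.26 (SE), adjusted p = 2.1e-20), and contacts inside its promoter anchor fell by a like amount (log2 fold change -2.61). All 9 loops named here were chosen so that the 4 libraries of one background lay above all 4 of the other, so the lack of overlap follows from the choice.

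**Figure D2:**
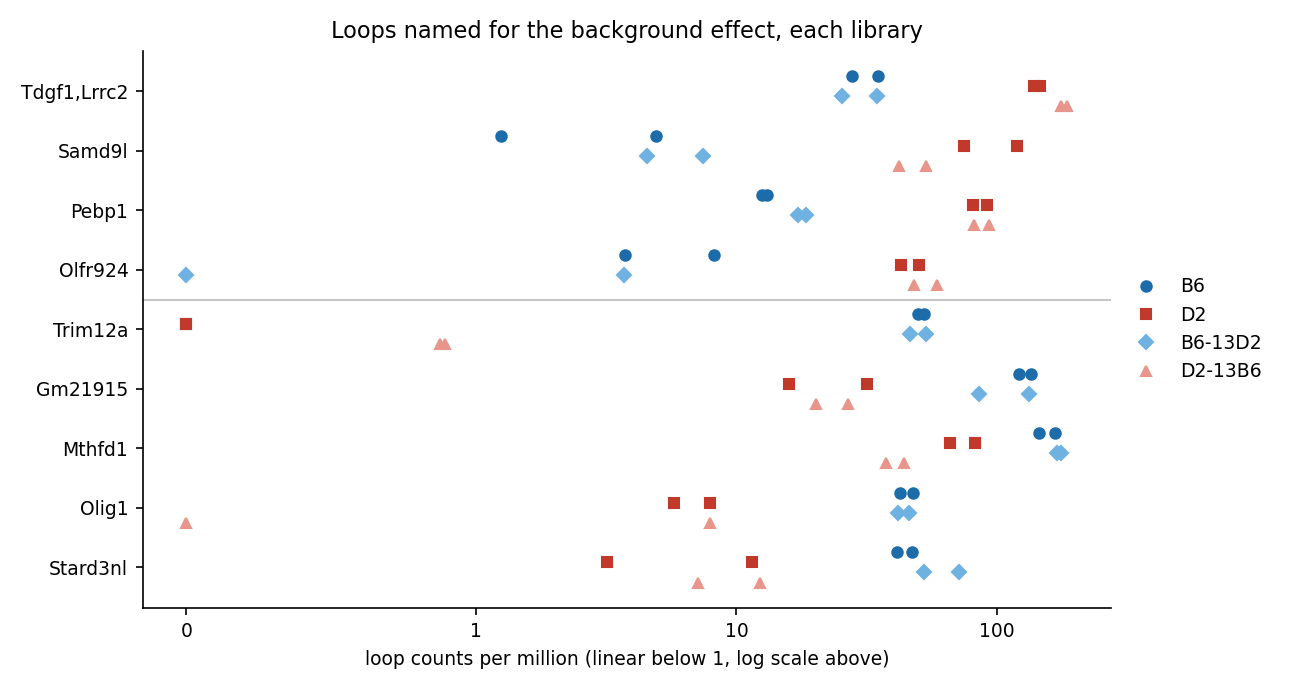
CPM (counts per 1000000 counts of the library after TMM scaling, x axis, linear below 1 and logarithmic above) of the 9 loops named for genetic background in each of the 8 libraries, with loops higher in the D2 background above the line and lower ones below. Each point is a library, coloured by line; the Tdgf1 and Lrrc2 loop lies between 25.3 and 35.0 in the B6-background libraries and between 138 and 185 in those of the D2 background.

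Calls were more frequent among short loops, which are also the deepest. In the test of background 11.9% of loops under 25 kb passed, 11.5% at 25 to 50 kb, 7.03% at 50 to 100 kb, 4.16% at 100 to 250 kb and 3.99% at 250 to 500 kb, where the median counts over all libraries were 113, 76, 54, 42 and 34. The 1244 loops belonged to 982 promoter anchors, of which 792 had 1 such loop and 190 had 2 or more, with both directions at 21 of the 190. They met 1059 distal anchors. Of single-bin distal anchors of loops higher in the D2 background, 3.05% of 131 held a CTCF match and 16.8% the Esrrb motif, and of lower loops 3.91% of 179 and 15.1%, against 5.53% and 18.3% of all single-bin distal anchors.

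Each loop was set beside the contacts that begin and end inside its own anchors. Of the 1244 loops that passed the test of background, 796 had a promoter anchor whose inside contacts could be tested, and in 81.8% of these the inside contacts differed in the same direction as the loop. For distal anchors it was 89.8% of 519. Across these loops the log2 changes had a Pearson correlation of 0.51 with the promoter anchor and 0.77 with the distal anchor, described without a test because loops share anchors and libraries. Over all tested promoter to distal loops the same-direction share was 62.3% of 9724 for promoter anchors and 66.0% of 5029 for distal anchors. Among those with at least 20 counts a library on average it was 66.0% of 2081 and 70.4% of 1276. Inside contacts themselves passed the test in the loop's direction at the promoter anchor of 317 called loops and in the opposite direction at that of 21. Over all tested promoter to distal loops these counts were 1643 and 533. Of all tested contacts inside an anchor 20.2% passed.

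**Figure D3:**
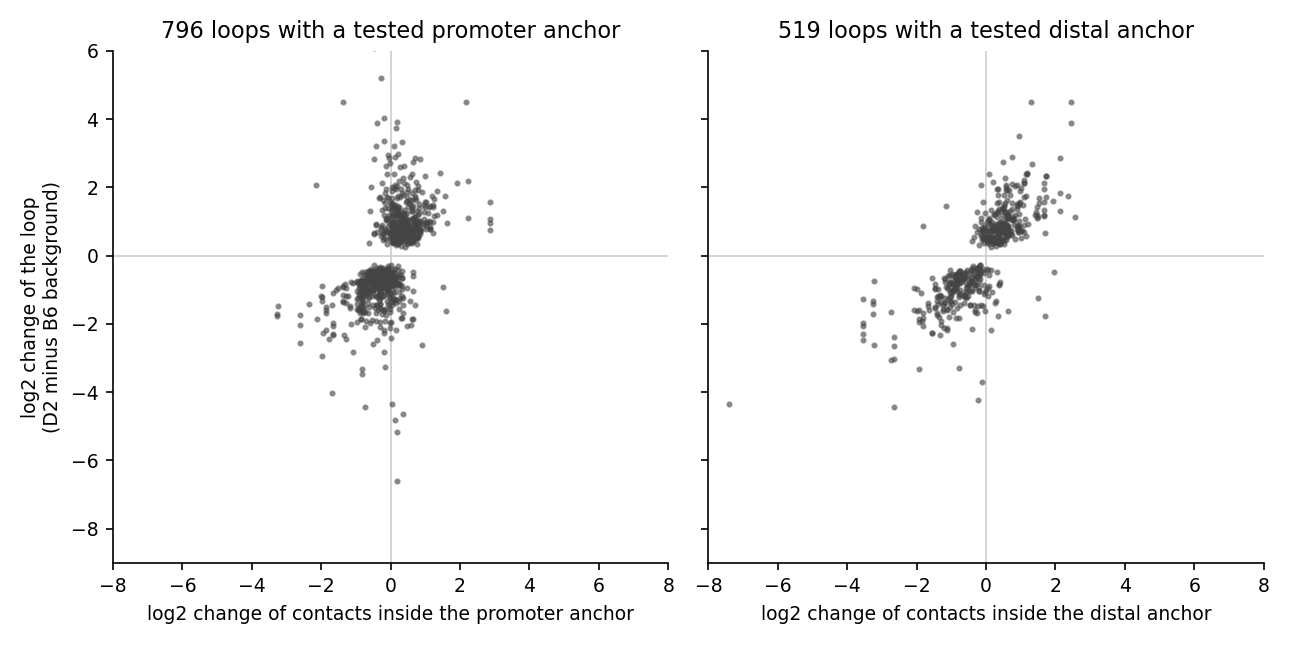
Each point is a loop that passed the test of background, with its log2 change (D2 minus B6 background) on the y axis and the log2 change of contacts inside its promoter anchor (left, 796 loops) or distal anchor (right, 519 loops) on the x axis. Most points lie in the quadrants where both changes have the same sign, 81.8% on the left and 89.8% on the right.

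The parental lines alone, D2 minus B6, asked the same of 2 lines that differ in the whole genome. Here 341 of the 16272 loops (2.1%) passed, 169 higher and 172 lower in D2, against 2.65% of all tested loops (1.38% higher, 1.27% lower). Without B6 replicate 1 the count was 121, without D2 replicate 1 187 and without D2 replicate 2 147, while DESeq2 called 77. With a filter at 1 count edgeR called 0, where the main filter left 2004 at an unadjusted p under 0.05. The comparison shares its libraries with the test of background, so its values stand beside that test and do not add to it. The loops of Samd9l (log2 fold change 5.01 ± 0.43 (SE), adjusted p = 2.32e-27), Tdgf1 with Lrrc2 (2.16 ± 0.24 (SE), adjusted p = 1.69e-16) and Pebp1 (2.75 ± 0.32 (SE), adjusted p = 2.04e-14) led the loops named as higher. The Trim12a loop was at least 22.7-fold lower in D2, against a floor of 3 counts over both D2 libraries (edgeR adjusted p = 1.27e-17).

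Tomm7, a subunit of the mitochondrial protein import complex, was joined over 137.5 kb and past 7 other coding starts to chr5:23710001-23715000. Its loop gave 0 and 0 CPM in B6, 2.47 and 0 in B6-13D2, 38.8 and 25.4 in D2 and 28.5 and 30.7 in D2-13B6. With 0 counts in both B6 libraries it was at least 15.1-fold higher in D2 (edgeR adjusted p = 1.21e-11). The loop met the filter for testing only through libraries of the D2 background. Txlnb, a taxilin gene, gave 38.7 and 35.9 CPM in B6, 113 and 92.3 in B6-13D2, 108 and 152 in D2 and 117 and 95.6 in D2-13B6. D2 exceeded B6 (log2 fold change 1.78 ± 0.23 (SE), adjusted p = 2.07e-11), and B6-13D2 did too (1.43 ± 0.23 (SE), adjusted p = 2.33e-06), so that B6 was the low line among the 4. For D2 minus B6, contacts inside the promoter anchor of Txlnb differed by 1.74 (edgeR adjusted p = 8.64e-06) and inside the distal anchor by 1.85 (0.015). Slc20a1, a phosphate transporter, gave 229.7 and 206 CPM in B6, 214 and 244 in B6-13D2, 97.7 and 103 in D2 and 107 and 120.2 in D2-13B6 (log2 fold change -1.12 ± 0.18 (SE), adjusted p = 6.68e-08), with both D2-background lines low. Rerg, a Ras-like GTPase gene, gave 44.95 and 52.3 CPM in B6, 25.98 and 33.5 in B6-13D2, 8.62 and 6.35 in D2 and 2.68 and 2.63 in D2-13B6 (log2 fold change -2.65 ± 0.42 (SE), adjusted p = 7.35e-08). A single distal anchor on chromosome 13 (chr13:59645001-59670000) had 4 tested loops, all of which passed in this comparison.

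The interval of chromosome 13 was compared in both backgrounds. With the B6 genome, B6-13D2 minus B6, 98 of the 16272 loops (0.602%) passed, 50 higher and 48 lower, against 0.859% of all tested loops (0.537% and 0.322%). Scaling moved the split of directions, to 26 higher and 62 lower by library totals and 24 and 51 after loess on abundance. DESeq2, which differs in its test as well as its scaling, called 19 and 5. Without B6 replicate 1 16 loops passed, without B6 replicate 2 54, without B6-13D2 replicate 1 36 and without B6-13D2 replicate 2 53. With the D2 genome, D2 minus D2-13B6, 100 (0.615%) passed, 23 higher and 77 lower, against 0.922% (0.188% and 0.734%). Of these 45 lay on chromosome 11, all lower, against 3.82% of all tested loops there, and elsewhere 23 were higher and 32 lower, against 0.211% and 0.361% of all tested loops there. By library totals the split was 45 higher and 43 lower, as this scaling shifts the median of all tested loops by 0.11 on the log2 scale, and in DESeq2 2 and 24. Scaling per chromosome left 10 higher and 30 lower, and a fit without chromosome 11 left 11 and 31, while a filter at 10 counts gave 50 and 70. Without D2 replicate 1 14 passed, without D2 replicate 2 28, without D2-13B6 replicate 1 43 and without D2-13B6 replicate 2 31.

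The 2 averaged, as lines with the D2 interval (D2 and B6-13D2) minus lines with the B6 interval (B6 and D2-13B6), gave 115 loops (0.707%), 44 higher and 71 lower with the D2 interval, against 0.986% of all tested loops (0.425% and 0.561%). All 24 on chromosome 11 were lower, against 1.8% of all tested loops there (0.0207% higher, 1.78% lower), and the others were 44 higher and 47 lower, against 0.474% and 0.414% of all tested loops off that chromosome. Of 486 tested loops on chromosome 13, 16 passed, 5 of them higher, against 3.92% of all tested loops of that chromosome (2.13% higher, 1.79% lower). The calls belonged to 106 promoter anchors. A distal anchor in Zfp493 (chr13:67790001-67805000), with 11 tested loops, had 4 of the calls, the most of any distal anchor. The count was 38 without B6 replicate 1, 66 without D2 replicate 1, 45 without D2 replicate 2, 75 without D2-13B6 replicate 1 and 71 without D2-13B6 replicate 2, and DESeq2 called 22, 6 higher and 16 lower. With a filter at 1 count, which let 64542 of the loops into the test, edgeR called 0 in this comparison and in each of the 2 behind it, where the main filter left 1636, 1498 and 1502 at an unadjusted p under 0.05.

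Fads1, a desaturase of polyunsaturated fatty acid synthesis on chromosome 19, had the loop with the smallest adjusted p (chr19:10160001-10185000 with chr19:10125001-10150000, 35 kb). It measured 229.7 and 189 CPM in B6, 293 and 304 in D2-13B6, 141 and 156 in D2 and 121 and 126 in B6-13D2. The B6-interval lines were higher in both backgrounds, D2-13B6 most of all (log2 fold change -0.89 ± 0.11 (SE), adjusted p = 2.14e-12). Contacts inside its promoter anchor also passed (log2 fold change -0.999, adjusted p = 6.62e-10). Isy1, a splicing factor, and Cnbp, a nucleic acid-binding protein, share a promoter anchor on chromosome 6 that was joined over 25 kb to chr6:87865001-87880000. That loop measured 196 and 154 CPM in B6, 176 and 187 in D2-13B6, 89.04 and 98.4 in D2 and 106 and 107 in B6-13D2. Again both lines with the B6 interval were higher (log2 fold change -0.84 ± 0.12 (SE), adjusted p = 1.46e-08), and here inside contacts of the promoter anchor did not pass (log2 fold change -0.16, adjusted p = 0.746).

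The other 3 of the lower loops lie on chromosome 13. Nlrp4f, an oocyte-expressed gene of the NLR family, gave 139 and 123 CPM in B6, 103 and 83.3 in D2-13B6, 33.03 and 61.9 in D2 and 61.9 and 49.8 in B6-13D2 (log2 fold change -1.12 ± 0.15 (SE), adjusted p = 2.78e-10). Golm1, a Golgi membrane protein, was joined within its own gene and gave 98.6 and 91.5 CPM in B6, 62.4 and 52.6 in D2-13B6, 40.2 and 42.9 in D2 and 23.5 and 30.8 in B6-13D2 (log2 fold change -1.13 ± 0.18 (SE), adjusted p = 2.98e-07). Its difference was -1.78 ± 0.25 (SE), adjusted p = 1.64e-09 with the B6 genome alone, and with the D2 genome -0.47 ± 0.25 (SE), adjusted p = 0.549, which did not pass. Whether the backgrounds differ was not tested. Zfp273, a zinc finger gene, was joined to the Zfp493 anchor and gave 78.7 and 86.6 CPM in B6, 51.7 and 46.5 in D2-13B6, 28.7 and 22.2 in D2 and 27.2 and 30.8 in B6-13D2 (log2 fold change -1.21 ± 0.19 (SE), adjusted p = 4.72e-07). In these 3 loops B6 was the highest line.

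None of the 5 loops named as higher with the D2 interval lies on chromosome 13. Ndufaf1, an assembly factor of respiratory complex I, was joined over 47.5 kb to an anchor within Rtf1 and gave 3.75 and 1.63 CPM in B6, 8.03 and 6.14 in D2-13B6, 20.1 and 22.2 in D2 and 16.1 and 13.6 in B6-13D2 (log2 fold change 1.94 ± 0.39 (SE), adjusted p = 0.00038). Dtwd2, a tRNA-modifying enzyme, gave 49.9 and 62.1 CPM in B6, 41.03 and 37.7 in D2-13B6, 64.6 and 69.8 in D2 and 108 and 86.9 in B6-13D2 (log2 fold change 0.78 ± 0.16 (SE), adjusted p = 0.000794). Dnm1l, the dynamin-like GTPase of mitochondrial fission, gave 13.7 and 26.1 CPM in B6, 13.4 and 11.4 in D2-13B6, 33.03 and 41.3 in D2 and 30.9 and 29.9 in B6-13D2 (log2 fold change 1.11 ± 0.25 (SE), adjusted p = 0.00224). Its 2 B6 libraries lay far apart, one near D2-13B6 and the other near the lines with the D2 interval. Slc35g1 gave 28.7 and 37.6 CPM in B6, 51.7 and 57.9 in D2-13B6, 89.04 and 85.7 in D2 and 59.4 and 59.7 in B6-13D2 (log2 fold change 0.77 ± 0.17 (SE), adjusted p = 0.00253), with D2 highest and B6 lowest. Lpar6, a lysophosphatidic acid receptor gene that lies in an intron of Rb1, gave 64.9 and 68.6 CPM in B6, 61.5 and 55.3 in D2-13B6, 76.1 and 105 in D2 and 126 and 93.2 in B6-13D2 (log2 fold change 0.66 ± 0.15 (SE), adjusted p = 0.00254). The edgeR call of Dnm1l was lost without B6 replicate 1 (adjusted p = 0.1201) or D2 replicate 2 (0.0552), that of Slc35g1 without B6 replicate 1 (0.109), and that of Lpar6 without D2 replicate 2 (0.155) or B6-13D2 replicate 1 (0.0696).

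**Figure D4:**
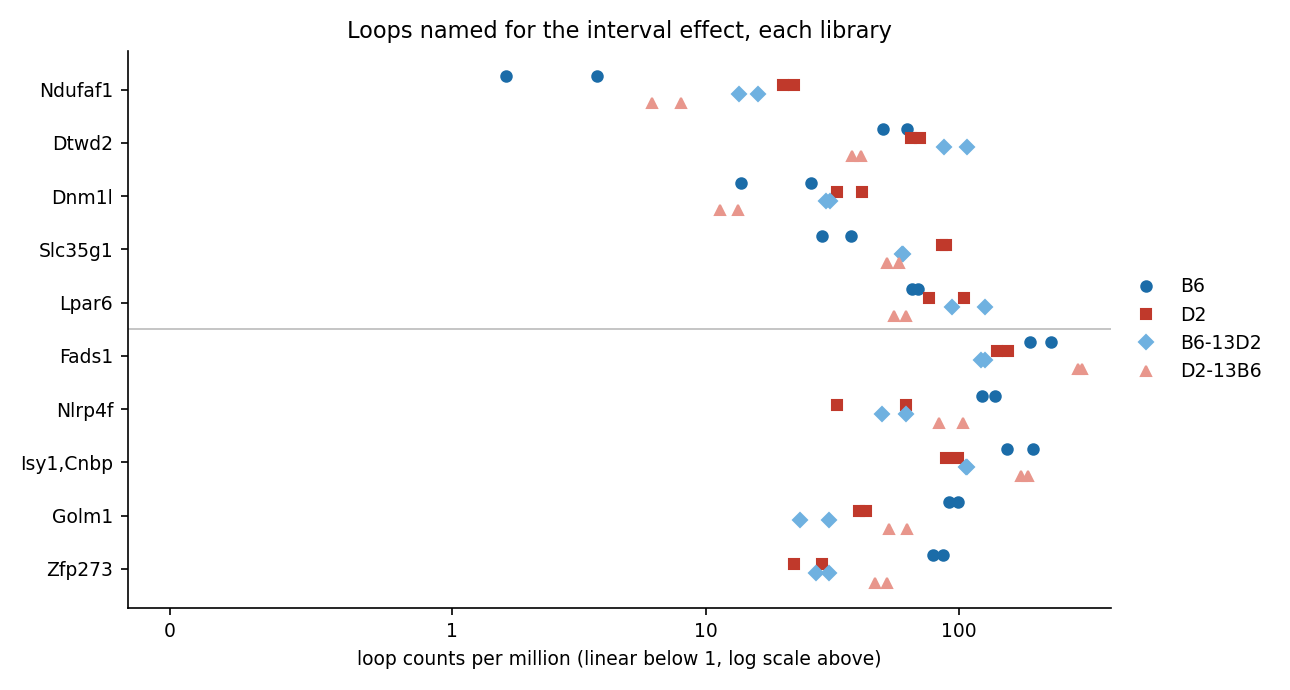
CPM (counts per 1000000 counts of the library after TMM scaling, x axis, linear below 1 and logarithmic above) of the 10 loops named for the averaged effect of the interval in each library, higher ones above the line and lower ones below. Each point is a library, coloured by line; the Fads1 loop lies between 121 and 156 in lines with the D2 interval and between 189 and 304 in lines with the B6 interval.

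Within the B6 background, the loop of Utrn, the dystrophin homologue utrophin, gave 26.2 and 27.8 CPM in B6, 81.7 and 81.5 in B6-13D2, 58.9 and 49.2 in D2 and 60.7 and 47.4 in D2-13B6, and B6 was the low line (log2 fold change 1.60 ± 0.26 (SE), adjusted p = 3.08e-06). D030056L22Rik gave 13.7 and 13.1 CPM in B6, 53.2 and 42.5 in B6-13D2, 28.7 and 25.4 in D2 and 35.7 and 31.6 in D2-13B6 (log2 fold change 1.80 ± 0.34 (SE), adjusted p = 0.000181). Mtfr1, a mitochondrial fission regulator, had 0 and 1 counts in B6 and 16 and 16 in B6-13D2, a ratio of 23.1 (95% interval 3.86 to 941, counting error only). Rngtt, the mRNA capping enzyme, was also higher (log2 fold change 0.82 ± 0.16 (SE), adjusted p = 0.000372). The longest loop named in any comparison joined Fgfbp3 and Btaf1, a regulator of TATA-binding protein, to an anchor at the 5′ end of Ide, the insulin-degrading enzyme, that holds the start of a non-coding transcript of it but of no coding one, over 420.0 kb and past 16 coding starts. It gave 28.7 and 26.1 CPM in B6, 3.71 and 2.72 in B6-13D2, 0 and 4.76 in D2 and 0.892 and 0.877 in D2-13B6. Both B6 libraries lay above all 6 others (log2 fold change -3.08 ± 0.52 (SE), adjusted p = 8.13e-06). Ptges, a prostaglandin E synthase, gave 39.96 and 27.8 CPM in B6, 4.95 and 11.8 in B6-13D2, 12.9 and 9.52 in D2 and 13.4 and 7.90 in D2-13B6 (log2 fold change -1.95 ± 0.39 (SE), adjusted p = 0.000451). Without B6 replicate 1 the edgeR calls of Mtfr1 (adjusted p = 0.155), Rngtt (0.132) and Ptges (0.214) were lost, and that of Ptges also without B6-13D2 replicate 1 (0.0752).

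Within the D2 background, Cetn3, a centrosomal calcium-binding protein, gave 26.2 and 37.6 CPM in B6, 54.4 and 48.9 in B6-13D2, 34.5 and 23.8 in D2 and 7.14 and 6.14 in D2-13B6 for a loop of 15 kb on chromosome 13, lowest in D2-13B6 (log2 fold change 2.12 ± 0.42 (SE), adjusted p = 0.000238). 2410141K09Rik, also on chromosome 13, was 12.9 times higher in D2 (95% interval 3.88 to 67.5, counting error only, edgeR adjusted p = 0.000175). Tlnrd1 and Mesd, the latter a chaperone of Wnt co-receptors, were joined over 102.5 kb into Cemip, with 34.96 and 49.0003 CPM in B6, 34.6 and 42.5 in B6-13D2, 33.03 and 23.8 in D2 and 4.46 and 11.4 in D2-13B6 (log2 fold change 1.83 ± 0.41 (SE), adjusted p = 0.00207). Samd9l was higher in D2 than in D2-13B6 as well (1.00 ± 0.22 (SE), adjusted p = 0.00108). Boll, a germ cell RNA-binding protein, gave 22.5 and 16.3 CPM in B6, 7.42 and 2.72 in B6-13D2, 5.74 and 6.35 in D2 and 33.003 and 25.4 in D2-13B6, low in D2 and in B6-13D2 (log2 fold change -2.25 ± 0.46 (SE), adjusted p = 0.000382). Without D2 replicate 1 the edgeR calls of Cetn3 (adjusted p = 0.168), Tlnrd1 with Mesd (0.294), Boll (0.115) and, in this comparison, Isy1 with Cnbp (0.0689) were lost. That of Tlnrd1 with Mesd was lost without D2-13B6 replicate 1 (0.25003), and that of Samd9l without D2 replicate 2 (0.478) or D2-13B6 replicate 2 (0.169), as was that of Dnm1l (0.167 and 0.102).

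Ptma, whose CTCF sites faced each other, gave 338 and 296 CPM in B6, 309 and 446 in B6-13D2, 316 and 322 in D2 and 483 and 488 in D2-13B6, lower in D2 (log2 fold change -0.61 ± 0.13 (SE), adjusted p = 0.000661). The edgeR call was lost in 5 of 16 alternatives, after loess on abundance (adjusted p = 0.0990), without D2 replicate 1 (0.144), without D2 replicate 2 (0.0656), without D2-13B6 replicate 2 (0.0708) and, the weakest, with the filter at 1 count (0.800).

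All loops of a promoter anchor were then summed, so that a gene's distal contacts could be compared with more counts, 18 to 31 per library at the median. Of 5983 tested sums 1044 (17.4%) passed in the test of background, 508 higher (8.49%) and 536 lower (8.96%), and 328 of these had no single loop that passed. On chromosome 11, 113 of 132 calls were higher, leaving 395 higher and 517 lower elsewhere. For the interval 193 (3.23%) passed, 88 higher (1.47%) and 105 lower (1.75%). Of these 45 lay on chromosome 11 and were all lower, leaving 88 (1.62%) and 60 (1.11%) elsewhere, and 114 had no single loop that passed. The interval count was 80 without B6 replicate 1, 91 without D2 replicate 1, 84 without D2 replicate 2, 88 without B6-13D2 replicate 1 and 87 without D2-13B6 replicate 2. DESeq2 gave 36 sums, 12 higher and 24 lower, and 370 for background. Both shares are those of all promoters with distal loops, so there is no wider background to set them against.

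Adam32, a metalloprotease-family gene on chromosome 8, had the smallest adjusted p among sums higher with the D2 interval, with 21.2 and 35.9 CPM in B6, 24.1 and 26.3 in D2-13B6, 71.8 and 73.02 in D2 and 60.6 and 42.5 in B6-13D2 over 13 loops. Both D2-interval lines lay above both others (log2 fold change 1.189 ± 0.187 (SE), adjusted p = 1.81e-06). The sums named in this paragraph were chosen by the rule used for loops, so their lack of overlap follows from the choice. Zfp292 (log2 fold change 0.52 ± 0.09 (SE), adjusted p = 7.49e-05) and Fgd4, an exchange factor for the GTPase Cdc42 (0.88 ± 0.17 (SE), adjusted p = 0.000311), were also higher. Among lower sums were Fads1 (-0.88 ± 0.10 (SE), adjusted p = 1.57e-11), Nlrp4f (-1.08 ± 0.14 (SE), adjusted p = 1.75e-09) and Isy1 with Cnbp (-0.67 ± 0.10 (SE), adjusted p = 9.32e-07), the genes of the single loops above. With distal anchors free of any annotated start the edgeR calls of the Zfp292 sum (adjusted p = 0.142) and the Nlrp4f sum (0.109) were lost. By background, Klf12, a Kruppel-like repressor, gave 13.7 and 22.9 CPM in B6, 17.3 and 11.8 in B6-13D2, 101 and 87.3 in D2 and 74.03 and 84.2 in D2-13B6 and was high in both D2-background lines (log2 fold change 2.44 ± 0.19 (SE), adjusted p = 3.32e-21), though no single loop of it is named above. The sum of Tdgf1 and Lrrc2 differed by 1.79 ± 0.13 (SE), adjusted p = 5.98e-25, and that of Samd9l by 2.93 ± 0.19 (SE), adjusted p = 2.43e-27.

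Genes of pluripotency and of the culture's signals were then described by list, with medians over a list's tested loops set beside 0.02, the median log2 change by background of all tested loops. The 61 loops of naive pluripotency genes had 3 higher in the D2 background, at Tbx3, Tdh and Zfp57, and 1 lower, at Nr5a2 (list median 0.13). Of 46 loops of core pluripotency genes 4 were higher, at Sox2, Tdgf1 and Utf1, and 0 lower (0.14). Of 43 loops of formative and primed genes 4 were higher, at Etv4, Etv5, Foxd3 and Lef1, and 0 lower (0.12). These counts stand against 4.3% higher and 4.55% lower among all tested loops, and the lists share anchors with neighbouring genes. For the interval 0 loops of these 3 lists passed by edgeR, against 0.986% of all tested loops.

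Sox2, a core pluripotency factor, was joined over 92.5 kb to a distal anchor downstream (chr3:34645001-34675000 with chr3:34730001-34775000). The loop measured 169 and 169.9 CPM in B6, 171 and 195 in B6-13D2, 221 and 225 in D2 and 244 and 283 in D2-13B6. D2-background libraries were all above the B6-background ones (log2 fold change 0.46 ± 0.11 (SE), adjusted p = 0.000439), but D2 against B6 alone did not pass (log2 fold change 0.40, adjusted p = 0.19). A shorter loop of Sox2, of 45 kb to chr3:34695001-34715000, gave 52.4 and 35.9 CPM in B6, 58.2 and 78.8 in B6-13D2, 79.0 and 95.2 in D2 and 82.95 and 83.3 in D2-13B6. It passed both for D2 minus B6 (log2 fold change 0.94 ± 0.24 (SE), adjusted p = 0.00836) and for background (0.60 ± 0.16 (SE), adjusted p = 0.00297). By background, contacts inside its promoter anchor differed by 0.62 (edgeR adjusted p = 0.000198) and inside its distal anchor by 0.75 (0.00432). Whether the loop changed beyond its anchors was not tested. Nanog, a transcription factor of the naive state, was joined over 32.5 kb (chr6:122685001-122720000 with chr6:122660001-122680000) and gave 301 and 209 CPM in B6, 259 and 291 in B6-13D2, 247 and 275 in D2 and 292 and 300.0 in D2-13B6. The lines overlapped (log2 fold change 0.06 ± 0.10 (SE), adjusted p = 0.809). The strongest loop of Pou5f1 (Oct4) had at most 7.94 CPM in any library, and its background difference did not pass (log2 fold change -0.29 ± 0.65 (SE), adjusted p = 0.858).

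Tdh, threonine dehydrogenase, on whose activity mouse embryonic stem cells depend, was joined over 132.5 kb into Xkr6 and gave 3.75 and 8.17 CPM in B6, 11.1 and 3.62 in B6-13D2, 20.1 and 31.7 in D2 and 14.3 and 18.4 in D2-13B6 (log2 fold change 1.70 ± 0.34 (SE), adjusted p = 2.95e-05). Contacts inside its distal anchor differed by 1.54 (edgeR adjusted p = 1.79e-09) and inside its promoter anchor by 0.03 (0.928). Utf1, a chromatin-associated factor of undifferentiated cells, gave 7.49 and 1.63 CPM in B6, 3.71 and 6.34 in B6-13D2, 12.9 and 15.9 in D2 and 11.6 and 14.9 in D2-13B6 (log2 fold change 1.41 ± 0.39 (SE), adjusted p = 0.00619). Lef1, a transcription factor of Wnt signalling, gave 13.7 and 17.97 CPM in B6, 12.4 and 19.01 in B6-13D2, 24.4 and 49.2 in D2 and 35.7 and 44.7 in D2-13B6 (log2 fold change 1.26 ± 0.24 (SE), adjusted p = 1.12e-05). In all 3 the mean was higher in each D2-background line than in each B6-background line. Tbx3, a T-box factor of the naive network, gave 206 and 196 CPM in B6, 136 and 170.2 in B6-13D2, 214 and 216 in D2 and 226 and 269 in D2-13B6, with B6-13D2 the low line (log2 fold change 0.39 ± 0.11 (SE), adjusted p = 0.00578). Nr5a2, an orphan nuclear receptor, was lower with the D2 genome (log2 fold change -0.74 ± 0.25 (SE), adjusted p = 0.0383).

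**Figure D5:**
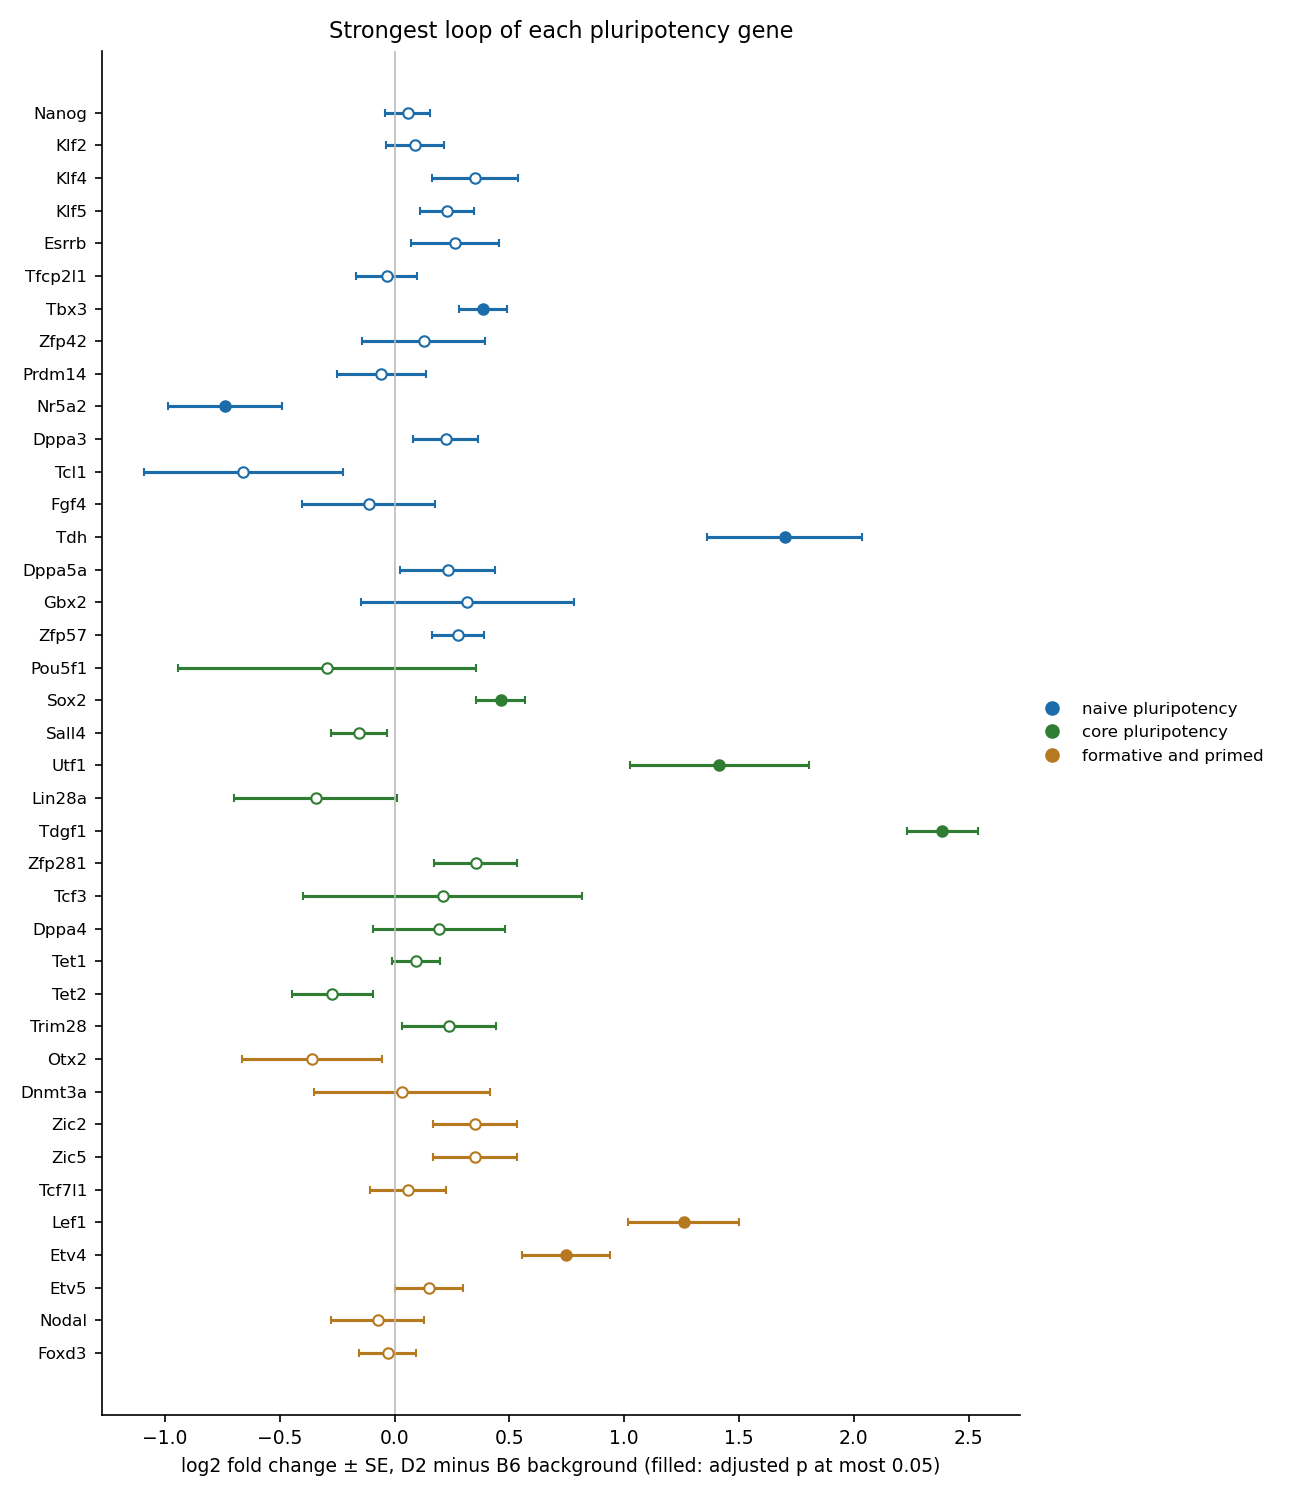
Log2 fold change (D2 minus B6 background, x axis) of the strongest tested loop of each of 39 pluripotency genes, with bars for ± 1 SE, coloured by list and filled where the adjusted p was at most 0.05. Of the 8 filled points 7 lie above 0 and 1, Nr5a2, below; Zic2 and Zic5 share a loop.

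The list of LIF, BMP and Nodal signalling had 68 tested loops, 3 higher (Bmp4, Lefty1, Lefty2) and 5 lower (Id3, Lefty2, Lifr and Smad7) in the D2 background (list median 0.03). Lefty1 and Lefty2, antagonists of Nodal, shared the distal anchor of their strongest loops. Genes that respond to MEK and Wnt had 30 loops, 2 higher (Myc, Mycn) and 2 lower (Mycn, Spry2), with a median of 0.31. Spry2, a feedback inhibitor of receptor tyrosine kinases, gave 53.7 and 76.8 CPM in B6, 75.5 and 84.2 in B6-13D2, 45.95 and 52.4 in D2 and 33.003 and 39.5 in D2-13B6 (log2 fold change -0.76 ± 0.17 (SE), adjusted p = 0.000248). Heterochromatin regulators had 74 loops, 4 higher (Atf7ip, Ehmt1, Hells, Zfp57) and 2 lower (Atf7ip, Cbx5), with a median of 0.20, and the strongest loop of Cbx5, which encodes HP1 alpha, fell (log2 fold change -1.94 ± 0.56 (SE), adjusted p = 0.0103). Ribosomal protein genes, a comparison list, had 209 loops with 7 higher and 7 lower (0.11). The shares over all tested loops, 4.3% higher and 4.55% lower, apply to these 4 lists too.

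For the interval, these 4 lists had 2 calls, both lower with the D2 interval and both on chromosome 11, at Socs3 and Rpl19. Among all tested loops of that chromosome 1.8% were called and 1.78% were lower, against 0.986% and 0.561% over the genome. In the comparisons behind this average, 1 loop of Lifr was higher in B6-13D2 than in B6 (against 0.537% of all tested loops). Of Socs3 and Cbx1, both on chromosome 11, 1 loop each was lower in D2 than in D2-13B6. The share lower in this comparison was 3.82% of all tested loops of that chromosome and 0.734% over the genome. Socs3, the feedback inhibitor of LIF signalling, gave 88.7 and 50.6 CPM in B6, 102 and 99.1 in D2-13B6, 44.5 and 46.04 in D2 and 44.5 and 49.8 in B6-13D2 (log2 fold change -0.87 ± 0.16 (SE), adjusted p = 7.18e-05). D2-13B6 was highest, and this line, on chromosome 11, stood above D2 at the median loop.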

How the data were processed

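H3K27ac HiChIP loops were counted in 8 libraries of 4 mouse embryonic stem cell lines. The deposited table holds raw counts of read pairs per loop, a pair of merged anchors, and a further deposited file per library holds counts per pair of 5-kb bins, both taken as the authors left them. The submitters' processing notes name BWA 0.7.18, SAMtools 1.19.2, edgeR 3.34.1 and the build mm10, in no stated role; the loop caller and its filters are not given in the sources used here. No molecular identifiers are named in the labels, so intervals cover counting error only, and whether reads of D2 map as well as those of B6 to the reference was not tested.

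Anchors were matched to protein-coding transcript starts of GENCODE M21 on GRCm38. Loops with at least 5 counts in at least 2 of the 8 libraries were fitted together in edgeR 4.0.16 (TMM scaling, quasi-likelihood F test, all libraries in one model), and p-values were adjusted by Benjamini-Hochberg over all 44706 tested loops at 0.05. SE was taken as the log2 fold change over the root of its F statistic. Distal sums per promoter anchor needed 10 counts in 2 libraries. Library shares were compared by exact permutation. Per contrast, the 5 higher and 5 lower loops, or sums, of smallest adjusted p were named among those whose libraries did not overlap, at least 1 Mb apart; the 10 loops with the most counts and the 10 promoter and 5 distal anchors with the most partners were also examined. Alternatives covered DESeq2 1.42.0, other scalings, filters, definitions of promoter and distal, and each library left out. On simulated counts the test recovered 40% of loops changed 2-fold and 94% of those changed 4-fold for background, with 7 false among 141 calls. Depth limits what can be seen: tested loops held 5 to 9 counts per library at the median.

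The results of some named genes are not reported here, and their places were not filled.

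The rule, the members and the gene lists were chosen with earlier results of these data known.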

Additional observations from a re-analysis of the deposited data

Results flagged for a closer look

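The 19 loops and 20 sums named for the interval or for background were examined for a library apart from the other 3 of its side, in 78 groups of 4 libraries, of which chance flags about 1 in 20. In 4 groups a library stood apart. The Dnm1l loop measured 26.1 CPM in B6 replicate 2, against 11.4 to 13.7 in the other 3 libraries with the B6 interval. The summed loops of Gm21915 gave 190.5 CPM in B6-13D2 replicate 1, against 243 to 249.7 in the others of the B6 background. Those of Trim12a gave 48.0 in B6-13D2 replicate 2, against 54.9 to 55.7, and those of Rerg 51.7 in D2 replicate 1, against 29.0 to 31.7 in the others of the D2 background.

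In 1 of the 33 loops and sums named for the interval, averaged or in a single background, the D2 interval went with opposite directions in the 2 backgrounds in every library. This difference between backgrounds was not tested. It was the D030056L22Rik loop, which differed by 1.80 on the log2 scale with the B6 genome (edgeR adjusted p = 0.000181) and by -0.31 with the D2 genome (adjusted p = 0.829). Features named only for background or for D2 minus B6 were not among the 33. Of those, the loop and the sum of Rerg and the sum of Gm21915 also went with opposite directions.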

How the results depend on the processing

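DESeq2 called fewer loops than edgeR in each comparison: 77 for D2 minus B6, 24 for B6-13D2 minus B6, 26 for D2 minus D2-13B6, 22 for the interval and 347 for background, with 36 and 370 promoter sums for interval and background. A filter at 1 count tested 64542 of the loops and left 0, 0, 0, 0 and 42 calls by edgeR, where edgeR's main filter gave 2004, 1498, 1502, 1636 and 3120 at an unadjusted p under 0.05; a filter at 10 counts gave 177 for the interval. Distal anchors without any annotated start left 226 calls for D2 minus B6, 61 for D2 minus D2-13B6, 68 for the interval, 812 for background and 104 interval sums. For D2 minus D2-13B6, scaling per chromosome left 40 and leaving out chromosome 11 left 42, and without that chromosome 127 interval sums passed. Leaving out 1 library at a time gave 121 to 346 calls for D2 minus B6, 16 to 87 for B6-13D2 minus B6, 14 to 111 for D2 minus D2-13B6, 38 to 138 for the interval, 888 to 1089 for background, 80 to 210 interval sums and 747 to 974 background sums. The cause was not tested, beyond the fewer loops or libraries in some of these settings.

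With the replicate number as a replicate block, 315, 71, 85, 91 and 1155 loops and 161 and 984 sums passed, in the same order, all within 1.5 times of the main counts. The numbers do not pair the samples: deviations of same-numbered libraries correlated at -0.05 to 0.00431.

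The share difference between parental and congenic lines was -0.873 points over counts between different anchors. That by interval was 0.0238 for spans under 250 kb, 0.0502 over tested loops, and -0.219 to 0.108 with 1 library left out.

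Of the values of named loops under settings that keep all libraries, 323 of 366 kept direction and call, and 43 lost the call, all but 1 of them with the filter at 1 count. With a library left out 361 of 382 kept it. Promoter sums kept 208 of 210, the exceptions being Zfp292 (adjusted p = 0.142) and Nlrp4f (0.109) with distal anchors free of annotated starts, the weakest values over their 19 alternatives, and 160 of 160 with a library left out. No named value turned direction.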
